A study of Homo sapiens with 13 samples.

Results

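A set of 10 well known neuropeptide and peptide hormone genes was examined for accessible chromatin in H82 and H146, established human small cell lung cancer (SCLC) cell lines. The 10 genes were GRP, CALCA, CALCB, PDYN, PENK, NPY, TAC1, SST, VIP and GAL. They were chosen by name out of 20033 protein-coding genes of GENCODE release 44 on hg38. The choice was made with earlier results of these data known, those of PDYN among them. Comparisons with all genes therefore describe the members and test nothing. For each, the accessible regions were taken around the transcription start site (TSS, here the 5′ end of the gene record) in a window of 1 kb to either side, over the gene body, and over the gene body plus 50 kb to either side, called its locus. The regions came from ATAC-seq, a method that marks open chromatin by inserting sequencing adaptors into it with the enzyme Tn5. Untreated H146 (4 libraries), H146 given FHD-286 (3 libraries), untreated H82 (3 libraries) and H82 given FHD-286 (3 libraries) were profiled. FHD-286 inhibits SMARCA4 and SMARCA2, the ATPases of the SWI/SNF chromatin remodelling complex, and was given at 100 nM for 14 days. All groups carried the genotype label WT. Each line stands for its subtype alone, and its treated and untreated libraries were merged into 1 list of regions. A value is therefore 1 per line, with no replicate error and no test, and no effect of FHD-286 can be read from it. Differences between the lines cannot be told apart from the number and depth of libraries or from the number of DNA copies at a locus.

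Neuropeptides and peptide hormones are made as precursors, packed into dense core vesicles, cut into short peptides and released to act on receptors of the same or other cells. Many of their genes respond to cyclic AMP through CREB, which binds the cyclic AMP response element (CRE), and several are silenced outside neuronal and neuroendocrine cells by REST, which binds the RE1 element. SCLC is a neuroendocrine cancer, and gastrin-releasing peptide, the product of GRP, is a classical growth factor of SCLC cells. SCLC subtypes are named after transcription factors, among them NEUROD1 (SCLC-N), which binds E-boxes.

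The H82 list held 206927 regions with a median width of 482 bp, which covered 5.409% of the genome, and the H146 list held 174093 with a median of 499 bp and 4.489%. H82, assigned to SCLC-N, had a region of 7865 bp at the NEUROD1 TSS where H146 had none within 1 kb. The lists were not independent in their edges. A start was equal to the base in both lines for 35829 regions, against 114 to 547 pairs at each offset of 1 to 12 bp, and an end for 35862, against 131 to 543. At least 1 edge was equal for 25.3% of H82 and 30% of H146 regions. The share with both edges equal was highest on chromosome 18 (24.1% of H82 regions), where GRP lies, and on chromosome 6 (23.5%), where VIP lies. The origin of the equal edges was not tested. Regions found in a single line have no overlap with the other, and the start-site counts and covered shares of the members are given with and without regions of an equal edge.

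**Figure D1:**
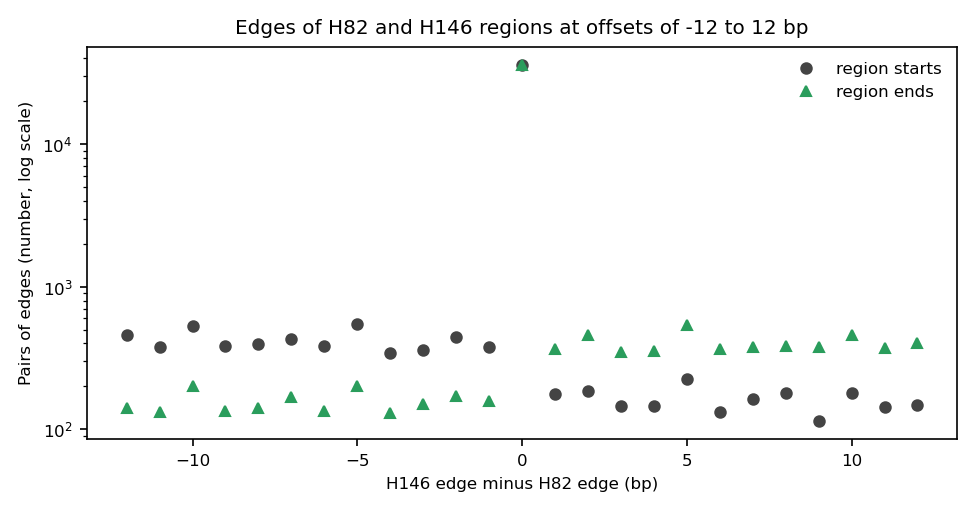
Number of pairs of H82 and H146 region edges (log scale) at each distance between them in bp, starts as circles and ends as triangles. At 0 bp there were 35829 starts and 35862 ends, while every other offset shown held 114 to 547 pairs.

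DNA of the regions that set the lines apart, or of the bases before the TSS, is shown first. The members whose TSS window held a region in a single line come before GRP and GAL, whose covered shares differed most. Sequences are from hg38, written 5′ to 3′ on the strand of the gene, and capitals mark an exact match, on either strand, to one of the words searched. These were the CRE (TGACGTCA) and its core (TGACG), the E-boxes CAGCTG and CAGATG, the left (TTCAGCACC) and right (GGACAGC) parts of RE1, and the words AP-1 (TGACTCA), OTX2 (TAATCC) and FOXA (TGTTTAC). For PDYN the H146 region next to the TSS (chr20:1994699-1994898, minus strand) held none of them, and a more distant H146 region (chr20:2005909-2006113, minus strand) held both parts of RE1. For NPY an intronic stretch of the H82 region is given (chr7:24284455-24284694, plus strand). For TAC1 the bases before the TSS are given (chr7:97731834-97732083, plus strand), of which the last 96 lay in an H82 region. Both marked words of TAC1 lay before that region. For CALCA the bases before the TSS (chr11:14972355-14972604, minus strand) and an intronic stretch of the H82 region (chr11:14971566-14971805, minus strand) are given. The CALCA bases before the TSS lay in no region of either line. For GRP (chr18:59219908-59220157, plus strand) and GAL (chr11:68683529-68683778, plus strand) the bases before the TSS are given, which for GRP lay within a region of both lines.
PDYN region by the TSS, H146: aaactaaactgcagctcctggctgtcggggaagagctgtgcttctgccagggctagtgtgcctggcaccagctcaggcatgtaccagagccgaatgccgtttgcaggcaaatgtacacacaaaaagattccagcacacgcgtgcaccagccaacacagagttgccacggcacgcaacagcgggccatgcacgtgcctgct
PDYN upstream region, H146: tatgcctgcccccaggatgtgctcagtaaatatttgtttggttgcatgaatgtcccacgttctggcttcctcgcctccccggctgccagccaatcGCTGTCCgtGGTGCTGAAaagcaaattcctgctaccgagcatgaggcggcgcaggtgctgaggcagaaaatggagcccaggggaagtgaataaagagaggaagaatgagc
NPY intron, H82: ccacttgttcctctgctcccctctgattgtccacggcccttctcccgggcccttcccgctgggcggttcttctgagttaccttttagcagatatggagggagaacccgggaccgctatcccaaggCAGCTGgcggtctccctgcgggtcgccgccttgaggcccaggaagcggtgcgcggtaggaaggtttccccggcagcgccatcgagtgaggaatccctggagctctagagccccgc
TAC1 before the TSS: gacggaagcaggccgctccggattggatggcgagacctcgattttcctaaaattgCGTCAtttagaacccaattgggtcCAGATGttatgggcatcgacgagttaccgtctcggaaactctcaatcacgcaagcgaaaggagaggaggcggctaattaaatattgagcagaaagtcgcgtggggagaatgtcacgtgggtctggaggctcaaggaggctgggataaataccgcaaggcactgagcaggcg
CALCA before the TSS: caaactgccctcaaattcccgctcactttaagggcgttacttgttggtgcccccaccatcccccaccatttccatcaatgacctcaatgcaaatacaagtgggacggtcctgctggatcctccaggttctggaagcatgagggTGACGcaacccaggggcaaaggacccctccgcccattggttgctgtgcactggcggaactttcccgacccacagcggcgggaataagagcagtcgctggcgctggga
CALCA intron, H82: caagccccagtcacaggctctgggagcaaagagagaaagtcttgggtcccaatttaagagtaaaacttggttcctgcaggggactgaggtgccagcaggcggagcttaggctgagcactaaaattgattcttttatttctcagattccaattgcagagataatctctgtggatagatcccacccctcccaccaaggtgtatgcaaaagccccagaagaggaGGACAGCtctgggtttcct
GRP before the TSS: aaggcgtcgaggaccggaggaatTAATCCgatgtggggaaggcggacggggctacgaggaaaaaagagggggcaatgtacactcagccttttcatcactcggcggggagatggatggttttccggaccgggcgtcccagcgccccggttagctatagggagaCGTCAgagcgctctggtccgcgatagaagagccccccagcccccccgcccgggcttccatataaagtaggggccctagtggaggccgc
GAL before the TSS: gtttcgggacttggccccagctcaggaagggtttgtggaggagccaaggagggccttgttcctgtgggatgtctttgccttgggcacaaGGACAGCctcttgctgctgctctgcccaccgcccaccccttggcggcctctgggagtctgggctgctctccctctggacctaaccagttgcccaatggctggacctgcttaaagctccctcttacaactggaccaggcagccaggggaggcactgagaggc

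A region reached into the TSS window of 8 of the 10 members in H82 and of 6 in H146. Over all protein-coding genes these shares were 80.5% and 77.2%. CALCA, NPY and TAC1 had one in H82 alone (3 members, against 5.1% of all genes), PDYN in H146 alone (1 member, against 1.86%) and SST in neither line (1 member, against 17.7%). GRP, CALCB, PENK, VIP and GAL had one in both. A region lay over the TSS base itself in H82 alone at NPY and TAC1 (2 members, against 4.8% of all genes), and in H146 alone at 0 members (against 2.12%). In the window of 1 kb, CALCA, NPY and TAC1 stayed H82-only and PDYN H146-only with the MANE Select transcript start in place of the record start. The same held without regions of an equal edge. With the start sites of all transcripts, NPY alone was left in H82 and PDYN alone in H146. CALCA and TAC1 each have a transcript that starts inside the gene, within 1 kb of an H146 region. With 5 kb to either side, NPY was left in H82, and PDYN and SST in H146. The shares over all genes were not computed under these alternatives.

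**Figure D2:**
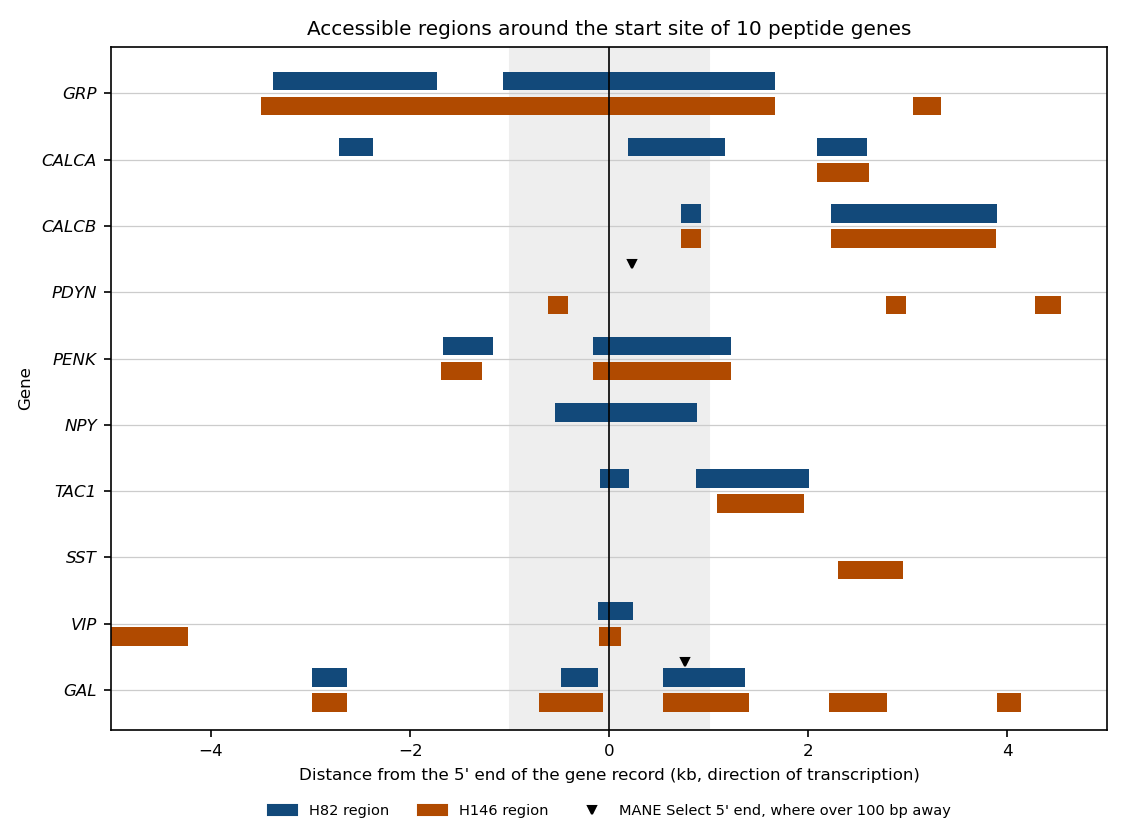
Accessible regions within 5 kb of the TSS of the 10 genes, drawn by distance in kb along the direction of transcription, H82 above and H146 below each line, with the window of 1 kb shaded and the MANE Select start marked where it lay over 100 bp away. NPY shows an H82 region across the TSS with no H146 region in view, and PDYN shows H146 regions with no H82 region in view.

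The opioid precursors are PDYN, which yields the dynorphins, and PENK, which yields the enkephalins. PDYN (chr20:1978757-1994285, minus strand) had 5 regions at its locus in H82 and 15 in H146, covering 2.992% and 5.78%. All 5 H82 regions overlapped an H146 region, while 10 of the H146 regions had no H82 counterpart. In H82 the region nearest to the PDYN TSS lay 27557 bp away, and none of the gene body was covered. In H146 the nearest lay 414 bp away, and 4 regions covered 5.557% of the body. With 10 kb to either side of the gene, 0% was covered in H82 and 3.755% in H146. At the whole locus the shares were 2.336% and 4.904% without regions of an equal edge. The H146-only PDYN regions were narrow. The one by the TSS, at -613 to -414 bp, was 200 bp wide, the narrowest width in either list, and those in introns at 2783, 4279 and 5351 bp were 200, 263 and 200 bp. Another of 200 bp at 13177 bp lay partly in an exon, with 50 exon bases. None of these reached 500 bp.

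The PDYN region at -11828 to -11624 bp, 205 bp wide, held the right and left parts of RE1 with 2 bases between them, as in the RE1 consensus. Over all regions, this exact pair occurred in 2 of 51303 H146-only regions (0.0039%) and 38 of 122790 shared H146 regions (0.0309%). In H82 it occurred in 13 of 84208 H82-only regions (0.0154%) and 47 of 122719 shared ones (0.0383%). The pair was counted after this region had been seen to hold both words, so its rarity is a description of the match and not a test. Whether REST was bound there was not measured.

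The left part of RE1, without the right part 2 bases away, was also found in the TSS regions that both lines had at VIP, from 96 to 104 bp after the TSS, and at PENK, from 1159 to 1167 bp. In each line these were 2 of 72 shared regions at the loci. Over all shared regions the left part, with or without the right, occurred in 1667 of 122719 in H82 and 1621 of 122790 in H146. With so few matches, no difference can be read from them. VIP (chr6:152750797-152759765, plus strand) encodes vasoactive intestinal peptide, of the secretin family. Its TSS region was 350 bp in H82 (-111 to 238 bp) and 223 bp in H146 (-105 to 117 bp), the H146 region lying inside that of H82. At the whole locus the order was the other way. H82 had 5 regions over 1.821% and H146 had 7 over 2.944%, with 1 H82-only region and 3 H146-only regions, among them one of 900 bp at -5128 to -4229 bp. The nearest H82 region to that one ended at -5577 bp. Without regions of an equal edge the shares were 0.8782% and 1.759%.

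NPY (chr7:24284188-24291862, plus strand) encodes neuropeptide Y, which acts in appetite and sympathetic signalling. Its H82 TSS region was 1420 bp wide and ran from -540 to 879 bp, with 540 bases before the gene, 281 in exons and 599 in introns. It covered 70.96% of the TSS window. In H146 the nearest region began 5895 bp inside the gene, in an intron, where H82 had one as well. The locus held 5 regions in H82 and 3 in H146, covering 3.173% and 1.775%. All 3 H146 regions overlapped an H82 region, and 2 H82 regions had no H146 counterpart. Without regions of an equal edge the shares were 2.05% and 0.5507%.

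TAC1 (chr7:97732084-97740472, plus strand) is the precursor of the tachykinins substance P and neurokinin A. H82 had a region of 292 bp over the TSS (-96 to 195 bp) that H146 lacked. A further H82 region of 1135 bp, at 875 to 2009 bp, reached into the TSS window, and the H146 region that overlapped it was 875 bp wide and began at 1081 bp, just outside. Its locus held 4 regions over 2.09% in H82 and 3 over 1.565% in H146. Without regions of an equal edge the shares were 1.517% and 0.9918%.

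The calcitonin family genes lie side by side on chromosome 11. CALCA (chr11:14966622-14972354, minus strand) encodes calcitonin and a calcitonin gene-related peptide, and CALCB encodes the related β peptide. The H82 region at CALCA was 976 bp wide and lay 184 to 1159 bp inside the gene, with 969 of its bases in introns, so it was not over the TSS base. H146 had no region there. Its nearest, of 519 bp, began 2087 bp inside the gene, at the same base as an H82 region of 499 bp. This was the only H146 region at the CALCA locus, which was covered to 0.4909% in H146 and 1.718% by 3 regions in H82. Without regions of an equal edge H146 was covered to 0% and H82 to 1.246%.

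The CALCB record (chr11:14904997-15082342, plus strand) starts with a long transcript that spans CALCA, so its locus of 277.3 kb contains that of CALCA and the regions of both genes are in part the same. At the record start both lines had an identical region of 200 bp at 721 to 920 bp. The MANE Select start lies 168596 bp further on. There H82 had a region of 1972 bp over the start, and H146 had regions of 222 and 664 bp inside the stretch that H82 covered or overlapping its end, but none over the start base. The locus held 10 regions in each line, covering 3.293% in H82 and 1.986% in H146, or 2.44% and 1.127% without regions of an equal edge.

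GRP (chr18:59220158-59230774, plus strand) had the densest locus of the 10. H82 had 22 regions over 21.55% and H146 had 26 over 26.47%, at percentiles 84.96 and 93.92 of all genes. Both lines had a region across the TSS, which was 2731 bp wide in H82 and 5166 bp in H146 and ended at the same base. Where H146 had 1 region from -3502 to 1663 bp, H82 had this region and a further one of 1647 bp at -3373 to -1727 bp. Downstream, the widest region of each line lay between GRP and the TSS of RAX, a homeobox gene in the same locus. It was 6517 bp wide in H146, at 43312 to 49828 bp from the GRP TSS, where H82 had regions of 3277 and 2587 bp. Only 1 H82 region and 6 H146 regions had no counterpart. An edge was equal in 13 of the 22 H82 regions, and without such regions the shares were 9.087% and 12.58%. The 1 Mb to either side was also covered more in H146, 19.89% against 13.81%.

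GAL (chr11:68683779-68691175, plus strand) encodes galanin, a neuropeptide of hypothalamus and gut. Its locus differed most in covered share, 8.843% in H82 and 13.96% in H146, from 13 and 26 regions. H146 had 14 regions that H82 lacked, and H82 had 1 that H146 lacked, of 1644 bp at -48533 to -46890 bp. The start itself was alike in both lines. Each had a region just before the record start, of 380 bp in H82 and 643 bp in H146, and one over the MANE Select start, which lies 765 bp further on, of 820 and 858 bp. Inside the gene H146 alone had regions of 574, 238 and 200 bp at 2212, 3899 and 6344 bp. An edge was equal in 4 H82 regions, and without such regions the shares were 7.414% and 12.39%.

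SST (chr3:187668912-187670394, minus strand) encodes somatostatin, an inhibitor of hormone release. It had no region within 1 kb of its TSS and none over its body in either line, although both lines had 16 regions at the locus, over 7.804% and 7.936%. The nearest H82 region lay 8434 bp before the gene, and H146 had the same one, of 1575 bp with equal edges. H146 alone had a region of 655 bp at 2299 to 2953 bp, downstream of the gene. An edge was equal in 10 of the 16 H82 regions, with both edges equal in 7. Without them the shares were 2.848% and 3.171%.

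PENK (chr8:56436674-56446671, minus strand) had a region across its TSS of 1393 bp with identical edges in both lines, at -166 to 1226 bp. All 5 H82 regions at the locus overlapped an H146 region. H146 had 8, of which 3 were its own, of 639, 660 and 230 bp, all downstream of the gene. The covered shares were 2.459% in H82 and 4.038% in H146, and 0.7527% and 2.27% without regions of an equal edge.

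In all, 4 of the 10 loci had the larger covered share in H82 (CALCA, CALCB, NPY and TAC1), while 63.7% of all protein-coding genes did. More regions in H82 than in H146 were found at 3 members (CALCA, NPY and TAC1), against 62% of all genes. The median difference in covered share, H82 minus H146, was -0.63 percentage points over the members (range -5.12 to 1.40) and 0.73 over all genes, for which the quartiles were -0.55 and 3.21. Against all genes, GAL, GRP and PDYN stood lowest, with differences of -5.12, -4.92 and -2.79 at percentiles 3.06, 3.33 and 7.268. NPY stood highest of the members, with 1.40 at percentile 59.4. No member's difference reached the upper quartile of all genes. The median covered share of the locus was 3.082% in H82 and 3.491% in H146 over the members, against 7.524% and 6.156% over all genes, while GRP, GAL and SST lay above the median of all genes in both lines. Over the gene body alone the order was the other way, with member medians of 13.29% and 8.39%, against 7.129% and 5.85%. The differences of CALCA and CALCB come in part from the same regions.

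**Figure D3:**
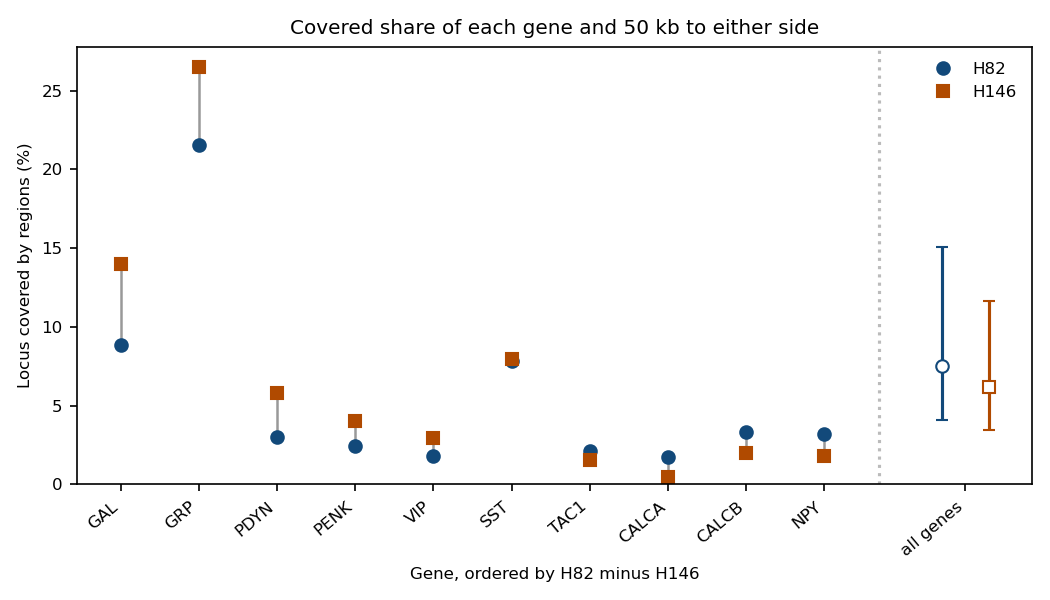
Share of each locus (gene body and 50 kb to either side) covered by regions, in percent, H82 as circles and H146 as squares, ordered by the difference. Open symbols with bars are the median and quartiles of all 20033 protein-coding genes; from GAL to SST the H146 value is the higher one, and from TAC1 to NPY the H82 value is.

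Counting each region once, the 10 loci held 85 H82 regions and 114 H146 regions. In H82, 72 overlapped an H146 region (84.7%) and 13 did not, whereas 59.3% of all H82 regions were shared. Of these 72, GRP held 21, SST 14 and GAL 12. In H146, 72 overlapped (63.2%) and 42 did not, whereas 70.5% of all H146 regions were shared. PDYN and GAL held 24 of the H146-only regions. These 42 regions had a median width of 264.5 bp (200 to 900 bp), 10 of them were exactly 200 bp wide, and 8 reached 500 bp. The 13 H82-only regions had a median of 388 bp (212 to 1644 bp), and 5 reached 500 bp. An edge was equal in 47.1% of the H82 and 36% of the H146 regions at these loci.

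**Figure D4:**
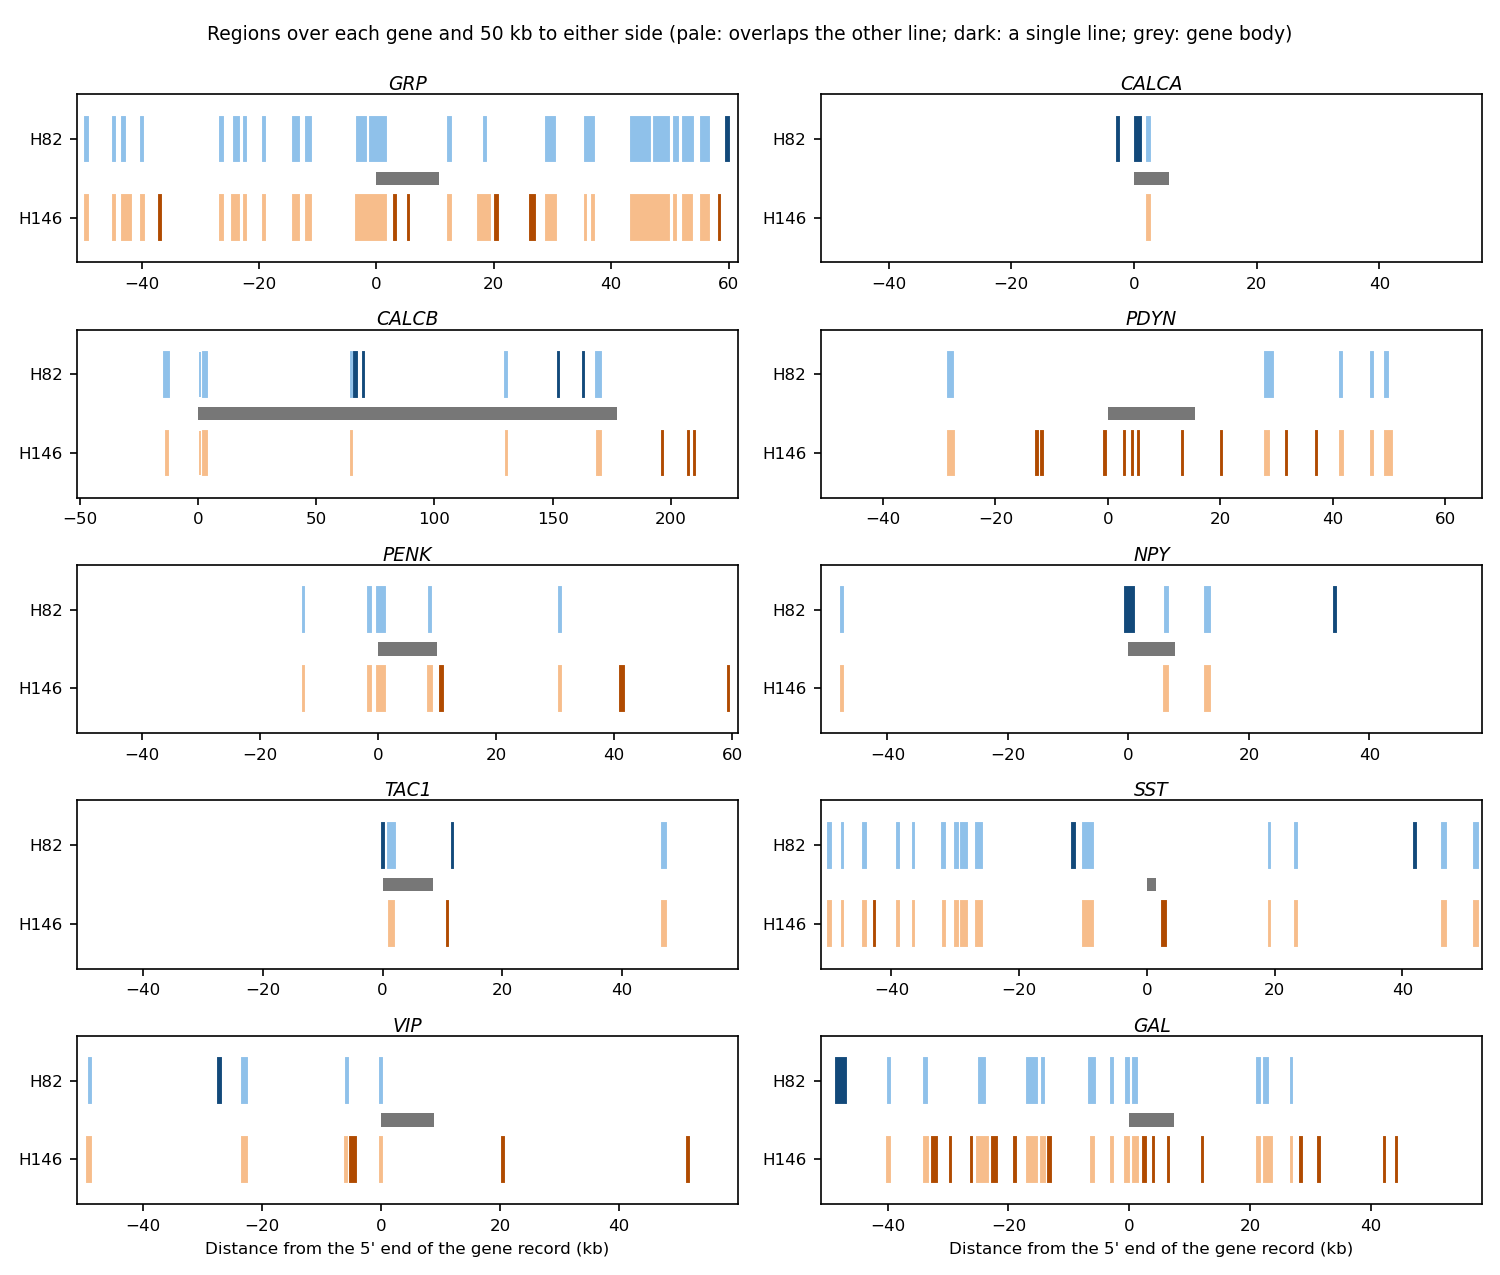
Regions over each gene (grey) and 50 kb to either side, by distance from the TSS in kb, H82 above and H146 below, pale where the region overlaps the other line and dark where it is found in a single line; CALCB has a longer scale. Dark H146 bars crowd the PDYN and GAL maps (10 and 14), while PDYN and PENK have no dark H82 bar.

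**Figure D5:**
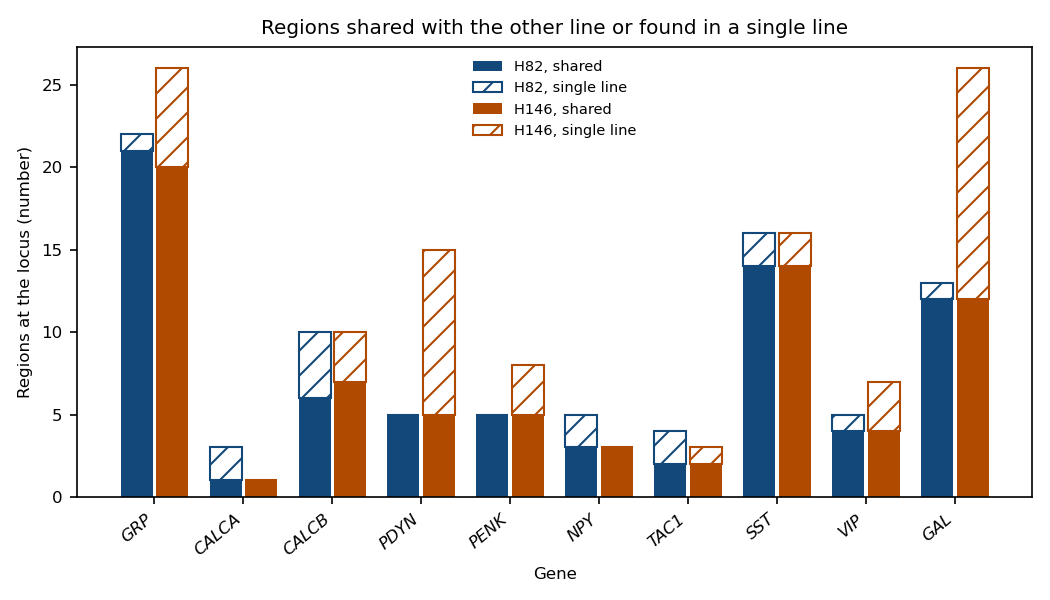
Number of regions at each locus by line, solid where shared with the other line and hatched where found in a single line. H146 bars exceed H82 bars at GRP, PDYN, PENK, VIP and GAL; the regions of CALCA are counted again under CALCB.

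For some members, part of these differences was found well beyond the genes. Over the whole genome H82 had 1.189 regions for each H146 region. In the 1 Mb to either side the ratio was 0.7758 around GRP, 0.8165 around PDYN, 0.8879 around PENK and 0.9351 around GAL, all below it, and at the loci it was 0.8462, 0.3333, 0.625 and 0.5. The PDYN, PENK and GAL loci were thus further from the genome ratio than their surroundings, and the GRP locus was not. Around NPY the ratio was 1.226 and at its locus 1.667. Around VIP it was 1.168 against 0.7143 at the locus, and around SST 1.34 against 1. Around CALCA the ratio was 1.143 against 3 at the locus, around CALCB 1.205 against 1, and around TAC1 1.467 against 1.333. The part of DNA copies in these ratios was not tested.

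Other genes of the peptide system gave a comparison, from lists of 30 other precursors and 27 receptors. The receptor list includes RAMP1, RAMP2 and RAMP3, which encode accessory proteins of receptors. A TSS region was found at 23 of the precursors in H82 and 20 in H146, against 80.5% and 77.2% of all genes. Of the precursors, 17 had one in both lines, 6 in H82 alone, 3 in H146 alone and 4 in neither. Over all genes, 5.1% had one in H82 alone, 1.86% in H146 alone and 17.7% in neither. CORT (420 bp in all), UCN (3077), TAC3 (649), GAST (295), PPY (1927) and OXT (1419) had one in H82 alone, and SCT (2792), TAC4 (203) and AVP (1172) in H146 alone. OXT and AVP, neighbours that encode oxytocin and vasopressin, thus fell to different lines with the window of 1 kb. With 5 kb or 10 kb to either side, both genes had a region in both lines. With the MANE Select start TAC3 had a region in both lines and IAPP joined the H146-only genes. The median difference in covered share was 1.08 percentage points, against 0.73 over all genes. The share was larger in H82 at 17 of 30, against 63.7% of all genes.

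Among the receptors, 19 had a TSS region in H82 and 22 in H146, against 80.5% and 77.2% of all genes. Of these receptors, 17 had one in both lines, 2 in H82 alone (against 5.1% of all genes) and 5 in H146 alone (against 1.86%). The other 3 receptors had one in neither line, against 17.7%. RAMP3 (767 bp) and SSTR4 (521) had one in H82 alone. VIPR1 (1586), VIPR2 (630), SSTR5 (1355), SSTR3 (335) and GALR3 (463) had one in H146 alone, although with the MANE Select start VIPR1 had one in both lines. GRPR, the receptor of gastrin-releasing peptide, had one of 421 bp in H82 and 446 bp in H146. OPRK1, the dynorphin receptor, had one of 1630 and 1798 bp. The median difference in covered share was 0.30 percentage points, against 0.73 over all genes. The share was larger in H82 at 17 of 27, against 63.7% of all genes.

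In the 250 bases before the TSS, the CRE core TGACG was found on either strand at 7 of the 10 members, and at 23% of all protein-coding genes. The 7 were SST, VIP, TAC1, PENK, CALCB, CALCA and GRP. With the MANE Select start GAL made it 8, against 25.5%. The full CRE was found at SST alone, beginning at -47, and at 1.89% of all genes, and its match contains those of the core at SST. So the one member with a full CRE was the one with no TSS region in either line, and the members that lacked the core at the record start were PDYN, NPY and GAL. The E-box CAGCTG occurred at PENK and in 13.1% of all genes. The other E-box was found at TAC1 (11% of all genes), the OTX2 word at GRP (7.03%) and the right part of RE1 at GAL (5.01%). AP-1, FOXA and the left part of RE1 were found before none of them, and before 3.36%, 2.43% and 0.324% of all genes. The bases ranged from 34% GC at VIP to 71.2% at NPY, around a median of 59.6% for all genes. A match is a run of letters and not a site shown to be bound.

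Within the single-line regions of the loci the words were few. The 42 H146-only regions (14.67 kb) held CAGCTG 17 times, 1.16 per kb against 0.878 in all H146-only regions, and CAGATG 15 times, 1.02 against 0.895 per kb. The 13 H82-only regions (7.829 kb) held CAGATG 8 times and OTX2 8 times, each 1.02 per kb against 1.24 and 1.26 in all H82-only regions, and CAGCTG once, at NPY, in the intron shown above. With so few matches, no difference between the members and the lists as a whole can be read from them.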

How the data were processed

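The deposited data were 1 list of regions per line, whose values are region starts and ends in bp on hg38, with no score, count or sample. Per the labels and the study's methods, the authors trimmed reads with Trim Galore 0.4.4, aligned them with Bowtie2 2.3.4, removed duplicate reads with Picard, called regions in each library with MACS2, removed blacklisted regions and merged regions within 500 bp over all libraries of a line. More or deeper libraries therefore make a longer list, widths are those of merged regions, and the depth per library was unknown. 3 H146 controls were sequenced in another batch than the fourth control and the treated cells, and the labels do not say which.

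Here, regions on 24 chromosomes were used (1 mitochondrial region per line was left out, and 0 columns of per-sample values were set aside). Coordinates are 1-based. Regions with at least 1 bp of overlap with the other line were called shared. Overlap and coverage were computed with Python 3.11.15, numpy 2.4.6 and pandas 2.3.3, and tested on simulated data. Sequence was read from hg38 with samtools 1.23.1; the RefSeq promoter table held 7 of the 10 members. Words were matched exactly on both strands. All 10 members were named. Sequences were shown first for members with a single-line TSS region. Members with the largest difference in covered share and a TSS region in both lines followed. The distant PDYN region was added because it held both parts of RE1. The 250 bases before the TSS of PDYN and of NPY held none of the words and were not printed. Other precursors and receptors were named where a single line had a TSS region. GRPR, OPRK1 and IAPP were named after their values were seen. The members and lists were chosen with earlier results of these data known, PDYN among them. Alternatives were other windows, start sites, widths and overlaps. The MANE Select starts and the removal of regions of an equal edge were added after seeing the data. A marker of the H146 subtype is not reported here.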

Additional observations from a re-analysis of the deposited data

How the results depend on the processing

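No paired analysis was possible because each line has 1 merged list, and for the same reason no library could be left out. Members with a TSS region in H82 alone numbered 1 with 5 kb to either side, 0 with 10 kb and 1 with the starts of all transcripts, and in H146 alone 2 with 5 kb and 0 with regions of at least 500 bp. Members with a TSS region in H146 numbered 10 with 10 kb and 3 with regions of at least 500 bp. Without regions of an equal edge, chosen after seeing the data, they numbered 5 in H82 and 3 in H146. With at least 50% of a region inside the window, GRP joined the H82-only genes, which made 4. The H146 region there covered 100% of the GRP window. At 5166 bp it was too wide for 50% of it to lie inside. Precursors in H82 alone and in H146 alone numbered 1 and 1 with 5 kb and with 10 kb, 3 precursors were in H82 alone with regions of at least 500 bp, and 12 had a TSS region in H146 without equal edges. Receptors numbered 1 and 2 with 5 kb, and 0 and 3 with 10 kb. The shares over all genes were not computed under these alternatives. Whether these counts differ from those of all genes is therefore not known.

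The median difference in covered share over the members turned positive with 100 kb to either side (0.217 percentage points) and with the gene body alone (0.6745). It was -2.82 with 10 kb, -1.05 with regions of at least 500 bp, -0.7336 without regions at the TSS of another gene, -1.12 with CALCA and CALCB as 1 locus and -0.6021 without equal edges, and -0.3222 as a difference of multiples of the genome share. With 100 kb SST (0.4263) and VIP (0.007657) turned positive, as did VIP over the gene body alone (1.35). The other members kept their direction under every alternative, except SST over the gene body, where both lines were at 0. With overlap of at least 50% of both regions, 24 H82 regions were of a single line. With both lists cut to regions of at least 500 bp, 34 H82 and 32 H146 regions were shared. In H146, 21 regions then had no counterpart among the H82 regions of that width, while 8 had no overlap with any H82 region. The causes were not tested. With no score or count, a weakly open site and a closed one cannot be told apart.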
